A study of Mus musculus with 477 samples.

Results

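Mammary luminal cells of pregnant and virgin Brca1 mutant mice were compared. The members were the 144 cells, of 477 cells in the whole count table, whose labels named the group pBrL (pregnant Brca1 mutant luminal cells, 109 cells) or vBrL (virgin, 35 cells). They came from 3 of the 11 mice of the series: pBrL-1 gave 71 cells, pBrL-2 gave 38 and the only virgin, vBrL, gave 35. All 3 were females of 3 to 4 months on a mixed C57BL/6 and 129/Sv background and carried MMTV-Cre, Brca1 fl/fl and the ROSA mT/mG reporter. The pregnant mice were taken at day 12.5 of pregnancy. MMTV-Cre is driven by a viral promoter that is active in mammary epithelium, so Brca1 was targeted in both stages and the comparison holds no Brca1 wild-type cells. The cells came from the fourth mammary glands, were depleted of blood and endothelial cells, and were sorted as live, high for CD24, low for CD29 and positive for membrane GFP, the mark of a cell in which Cre had acted. They were captured on Fluidigm C1 chips, which hold 1 cell per chamber and give full-length cDNA. The virgin and the pregnant mice were run on 3 different chips, and pBrL-2 shared its chip with mammary tumor cells of another mouse, so stage, mouse and chip cannot be told apart in this genotype. The study asked whether pregnancy changed expression in these genotypes.

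Luminal cells form the inner layer of the mammary ducts and alveoli. Some of them carry receptors for estrogen, progesterone and prolactin and pass hormone signals to their neighbours through secreted ligands. Others are progenitors of the alveolar cells, in which prolactin acting through JAK2 and STAT5, together with the factor ELF5, turns on milk protein genes and fat secretion in the course of pregnancy.

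The summed counts were 69313380 reads in vBrL, 115827852 in pBrL-1 and 77044079 in pBrL-2. A cell had between 170209 and 3550564 reads and between 2819 and 7474 genes with a read, and the median was 4552 genes in vBrL, 4794 in pBrL-1 and 5723 in pBrL-2. Luminal keratin was read in nearly every cell of the 3 mice. Krt8, a keratin of luminal cells, had a read in 34 of 35, 71 of 71 and 38 of 38 cells of vBrL, pBrL-1 and pBrL-2 after each cell was thinned to 100000 reads, and 0 of 9 luminal epithelial markers were called different between the stages. Of the fibroblast, adipocyte, immune, endothelial and red cell markers with enough reads to be tested, 0 were called. Adipoq and Lum, which define fat cells and fibroblasts, had 0 reads in each of the 3 mice, and the summed markers of each of these types except fibroblasts stayed at or below 34.4 CPM (reads of a gene per 1000000 reads of the mouse). The 6 fibroblast markers summed to 712 CPM in vBrL, 25.4 in pBrL-1 and 0.117 in pBrL-2, and 711 of the 712 CPM came from Dcn, decorin, 99.8% of whose reads in vBrL lay in cells with hormone-sensing markers. Of 10 markers of the basal, muscle-like layer 1 was called higher, and they summed to 111 CPM in vBrL, 579 in pBrL-1 and 225 in pBrL-2. Of 5 genes of MHC class II, which mark antigen-presenting cells, 2 were called lower. The cell of pBrL-1 that held the smooth muscle genes read 30.8 CPM of Krt8 and 6.52 CPM of Epcam, so it went against the luminal label.

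Brca1, the gene targeted in all 3 mice, was low in each stage. Its level in the summed reads was 4.24 CPM in vBrL, 2.03 in pBrL-1 and 31.8 in pBrL-2, so the pregnant mice lay on either side of the virgin mouse. The fitted log2 fold change was 1.96 ± 1.66 (SE, adjusted p = 0.629 by edgeR's quasi-likelihood test), and it was -1.03 without pBrL-2. Counts over the whole gene do not show which exons were read, so these values say nothing of the deletion. In the other genotypes, described further on, Brca1 read 6.99 CPM (v53L) and 5.21 CPM (p53L) where Brca1 was not targeted. It read 29.9 CPM (vBr53L) and 31.5 CPM (pBr53L) where it was. Trp53, the tumor suppressor that is intact by genotype in these mice, was measured at 92.5 CPM in vBrL, 413 in pBrL-1 and 515 in pBrL-2. Both pregnant mice lay above the virgin mouse, with a log2 fold change of 2.32 ± 0.34 (adjusted p = 0.0196). Trp53 had a read in 15 of 35 virgin cells (42.9%, exact 95% interval 26.3 to 60.6), in 55 of 71 cells of pBrL-1 (77.5%, 66 to 86.5) and in 34 of 38 cells of pBrL-2 (89.5%, 75.2 to 97.1).

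Of 15 genes known as p53 targets, 0 were called higher in pregnancy and 1 was called lower over all cells. Zmat3, an RNA-binding protein gene, fell from 76 CPM in vBrL to 3.04 in pBrL-1 and 2.38 in pBrL-2 (adjusted p = 0.0253, and 0.328 over all 7 luminal mice). Of its reads in vBrL, 71.4% lay in cells with hormone-sensing markers. Cdkn1a, which arrests the cell cycle, read 75.6 CPM in vBrL, 87 in pBrL-1 and 120 in pBrL-2, and Mdm2, whose product degrades p53, read 151, 117 and 129 (adjusted p = 0.686 and 0.730). Sesn1 and Sesn2 were past 4-fold in both pregnant mice without a call, at 0.361, 23.5 and 7.75 CPM for Sesn1 and 0.765, 13.4 and 39.5 CPM for Sesn2. Aen, an exonuclease gene, was the third past 4-fold, at 1.23, 11 and 9.70 CPM (adjusted p = 0.469). Of the 15 targets, 7 were higher in both pregnant mice than in the virgin mouse, as were 38.4% of all genes tested. The Trp53 call was also lost in the fit over all 7 luminal mice (adjusted p = 0.165). The target calls changed without the cells with at least 3 hormone-sensing markers, a setting described further on. Sesn1 and Sesn2 were then called higher (adjusted p = 0.0266 and 0.0234). Zmat3 was lower without a call (adjusted p = 0.0660), and Aen was not called (adjusted p = 0.235).

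Across 14111 genes tested, 177 were called at an adjusted p under 0.05 (1.25%), 66 of them higher (0.468%) and 111 lower (0.787%) in pregnancy. With 2 mice against 1, an exact permutation test of a single gene cannot go below p = 0.333 (two-sided, 3 splits). The edgeR fit had 1 residual degree of freedom and took the spread of the virgin mouse to be that of the 2 pregnant mice, and its p-values measure the spread between these mice, which were on different chips. DESeq2 called 1069 genes higher and 733 lower, and limma on the mean CPM over cells called 0, with 1599 at an unadjusted p under 0.05 against 2102 in edgeR. The count was 22 without pBrL-1 and 45 without pBrL-2 in a fit over the luminal mice, where all 7 together gave 18. That fit gives the other genotypes, described further on, a shared stage term, so differences between their pregnancy effects count as spread. With a pregnant Brca1 mutant mouse left out, each Brca1 mutant stage held 1 mouse, and the spread came from the other genotypes only. Of the genes named here and called in the 3 Brca1 mutant mice, those also called over all 7 were Abcg1, Cep85, Cited1, Fabp3, Fgfr2, Fgg, Foxa1, H2-Aa, Ltf, Slc7a2, Spp1 and Wap.

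The size of the differences was therefore read beside the calls. A gene was taken as past the size rule where both pregnant mice differed at least 4-fold from the virgin mouse in 1 direction on log2(CPM + 1), a scale that understates the change of low genes. This held for 521 genes higher (3.69%) and 586 lower (4.15%), and 137 of the 177 called genes were among them. For scale, 1219 genes (8.64%) differed at least 4-fold between the 2 pregnant mice themselves. Over all genes the pregnant mice ranked more alike with each other (Spearman 0.897 over genes, which are not independent) than either did with vBrL (0.841 and 0.839). The virgin mouse was no closer to the virgin mice of the other genotypes described further on, vBr53L and v53L (0.840 and 0.807), so it was not more alike to its own stage. The likeness of vBr53L and v53L to each other was not computed.

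**Figure D1:**
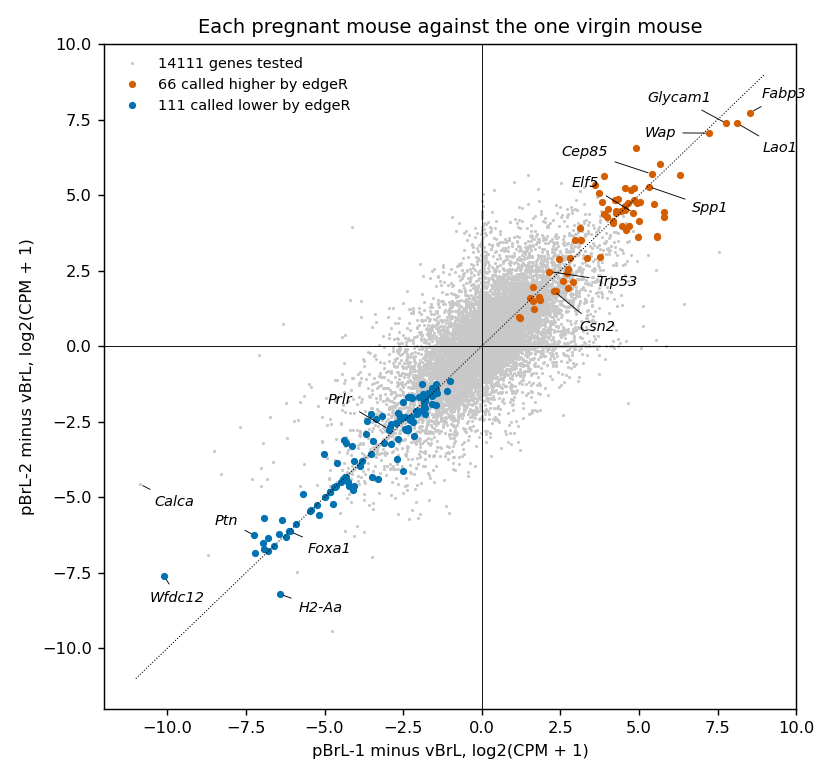
Each point is a gene, with the log2(CPM + 1) difference from vBrL in pBrL-1 on the x axis and in pBrL-2 on the y axis, and the dotted line marks equal differences. The 66 genes called higher and 111 called lower in pregnancy lie near the line, as both axes share vBrL and a call needs pregnant mice that are alike, whereas Calca lies far lower in pBrL-1 than in pBrL-2 and was not called.

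Most caseins and part of the other milk proteins were called higher in pregnancy, and the abundant caseins already had a high level in the virgin mouse. Of the 5 caseins, the main proteins of milk, 4 were called higher and 0 lower. Their median log2 ratio to vBrL was 1.86 in pBrL-1 and 0.98 in pBrL-2, against 0.03 and 0.06 over all genes tested. Csn2, beta-casein, read 10645 CPM in vBrL, 52124 in pBrL-1 and 37770 in pBrL-2. Both pregnant mice were above the virgin mouse, with a log2 fold change of 2.07 ± 0.22 (adjusted p = 0.00367). Csn1s2a read 8920, 32358 and 25584 CPM in the same order (1.69 ± 0.20, adjusted p = 0.00625), and Csn1s1 and Csn3 rose by log2 1.08 each (SE 0.18 and 0.20). Csn1s2b was far below the others, at 4.93 CPM in vBrL, 40.4 in pBrL-1 and 3.31 in pBrL-2, and its pregnant mice did not stand apart from the virgin mouse (adjusted p = 0.554). The casein genes lie in 1 cluster, with Csn1s1 at chr5:87666208-87682578 on the plus strand and Csn2 at chr5:87692624-87699630 on the minus strand of GRCm38 in the GENCODE vM21 annotation.

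Among 13 whey and other secreted milk proteins, 6 were called higher and 0 lower, and their median log2 ratio was 2.14 in pBrL-1 and 1.87 in pBrL-2. Wap, whey acidic protein, read 0.635 CPM in vBrL, 244 in pBrL-1 and 216 in pBrL-2. That was a log2 fold change of 8.49 ± 0.59 (adjusted p = 3.40e-04), and Wap rested on 44 reads in the virgin mouse against 28214 and 16664 in the pregnant ones. Glycam1, a mucin-like milk protein, read 15.5 CPM in vBrL, 3614 in pBrL-1 and 2717 in pBrL-2 (7.67 ± 0.38, adjusted p = 9.35e-05). Spp1, osteopontin, had nearly equal levels in the pregnant mice, 3662 and 3591 CPM, against 91.5 in vBrL (5.30 ± 0.28, adjusted p = 9.35e-05). Ltf, lactoferrin, likewise read 93.5 and 93.7 CPM against 2.28 (5.35 ± 0.67, adjusted p = 0.00904). Lalba, which sets lactose synthesis, read 18.1 CPM in vBrL, 195 in pBrL-1 and 144 in pBrL-2, and Pigr, the receptor that carries IgA into milk, read 40.7, 248 and 187. Both were called (adjusted p = 0.0222 and 0.0416). Wfdc18 and Muc15 were abundant in both stages and were not called, with 11602, 18502 and 19255 CPM for Wfdc18 and 2568, 3684 and 3614 CPM for Muc15.

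Lao1, an L-amino acid oxidase found in milk, was on none of the lists. It had 0 reads in the 35 virgin cells, 280 CPM in pBrL-1 and 165 CPM in pBrL-2. With 3 reads as the limit in the virgin mouse, Lao1 was at least 3808-fold higher in each pregnant mouse (adjusted p = 3.18e-04). In the fit over all 7 luminal mice, Wap, Spp1 and Ltf were called (adjusted p = 0.00225, 0.0240 and 0.0133). Lao1 missed the threshold in that fit (adjusted p = 0.0531), as did the caseins, Glycam1, Lalba and Pigr (adjusted p = 0.122 for Csn2, 0.255 for Glycam1, 0.624 for Lalba and 0.200 for Pigr).

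STAT5 binds pairs of TTC and GAA that are 3 bases apart. The letters TTCNNNGAA, a palindrome that reads the same on both strands, were searched in the 250 bases upstream of each RefSeq start (GRCm38.p6). They were found for 2197 of 27025 genes (8.13%), for 787 of 11008 tested genes with an entry (7.15%), for 8 of 56 called higher (14.3%) and for 7 of 86 called lower (8.14%). Among the caseins 2 of 3 genes with an entry held them, and among the whey proteins 1 of 11. The upstream windows of these 3 milk genes are shown, 5′ to 3′ on the strand of the gene with the match in capitals, beside that of Wap, which was also called higher and held no match. They lie at chr5:87699426-87699675 (minus strand) for Csn2, chr5:87665958-87666207 (plus) for Csn1s1, chr15:103565082-103565331 (minus) for Glycam1 and chr11:6638650-6638899 (minus) for Wap.
Csn2: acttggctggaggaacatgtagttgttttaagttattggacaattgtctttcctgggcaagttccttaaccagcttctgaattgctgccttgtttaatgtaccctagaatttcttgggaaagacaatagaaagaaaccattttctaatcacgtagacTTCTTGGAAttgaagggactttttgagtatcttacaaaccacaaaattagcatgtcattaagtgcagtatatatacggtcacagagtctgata
Csn1s1: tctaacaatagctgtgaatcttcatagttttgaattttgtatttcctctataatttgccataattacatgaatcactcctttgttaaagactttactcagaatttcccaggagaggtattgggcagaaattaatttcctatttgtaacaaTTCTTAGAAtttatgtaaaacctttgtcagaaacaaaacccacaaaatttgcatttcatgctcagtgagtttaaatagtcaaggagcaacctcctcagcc
Glycam1: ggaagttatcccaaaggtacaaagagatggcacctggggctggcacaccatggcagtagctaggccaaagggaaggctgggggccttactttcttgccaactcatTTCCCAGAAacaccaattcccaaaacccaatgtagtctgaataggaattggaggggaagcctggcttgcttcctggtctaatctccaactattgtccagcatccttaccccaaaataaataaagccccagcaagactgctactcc
Wap: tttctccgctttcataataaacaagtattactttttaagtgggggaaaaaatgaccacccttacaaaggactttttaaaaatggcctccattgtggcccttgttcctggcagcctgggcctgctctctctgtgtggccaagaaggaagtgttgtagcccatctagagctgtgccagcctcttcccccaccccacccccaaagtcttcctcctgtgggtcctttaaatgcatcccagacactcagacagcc
The match begins 93 bases before the start of Csn2, 100 before that of Csn1s1 and 145 before that of Glycam1. A match in these letters is a description of the sequence and not a measured site.

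Some genes for taking up fatty acids and for the fat droplet were called higher as well. Of 10 genes for fatty acid uptake and activation, 4 were called higher and 0 lower, and their median log2 ratio was 1.49 in pBrL-1 and 1.77 in pBrL-2. Fabp3, a fatty acid binding protein of the cytosol, read 1.07 CPM in vBrL, 766 in pBrL-1 and 438 in pBrL-2. Its log2 fold change was 9.14 ± 0.62 (adjusted p = 3.18e-04), and its log2(CPM + 1) ratios of 8.54 and 7.73 were the largest of all genes tested in both mice. Cd36, a fatty acid receptor at the cell surface, read 72.7, 1763 and 1057 CPM (4.28 ± 0.42, adjusted p = 0.00259, and 0.307 over all 7 luminal mice), and Lpl, which frees fatty acids from lipoproteins, read 45.4, 629 and 360 CPM (3.44 ± 0.46, adjusted p = 0.0117). Acsl1, which activates fatty acids, rose by log2 2.13 (adjusted p = 0.0292). Fabp4, the adipocyte form of the binding protein, had 0 reads in vBrL and read 2.75 and 0.0130 CPM in the pregnant mice.

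Of 10 genes for the milk fat globule and triglyceride synthesis, 2 were called higher and 0 lower. Plin2, which coats fat droplets, read 1148 CPM in vBrL, 4092 in pBrL-1 and 3545 in pBrL-2 (1.73 ± 0.23, adjusted p = 0.0120). Btn1a1, butyrophilin of the globule membrane, read 81.6, 621 and 364 CPM (2.59 ± 0.43, adjusted p = 0.0292). Xdh, which binds butyrophilin, read 148, 312 and 307 CPM without a call (adjusted p = 0.167).

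Genes that make fatty acids did not pass the test. Of 14 of them, 0 were called, although 11 were higher in both pregnant mice than in the virgin mouse, as were 38.4% of all genes tested. Fasn, fatty acid synthase, read 279 CPM in vBrL, 802 in pBrL-1 and 320 in pBrL-2 (adjusted p = 0.389), so that pBrL-2 lay close to the virgin mouse. Scd1, a desaturase, came nearest to a call with 609, 2126 and 1363 CPM (1.52 ± 0.33, adjusted p = 0.0674). Of 15 genes for sterol synthesis, uptake and efflux, 0 were called higher and 1 lower, the sterol exporter Abcg1, at 249 CPM in vBrL, 15.9 in pBrL-1 and 15.2 in pBrL-2 (-4.01 ± 0.43, adjusted p = 0.00343). Of 12 transporters known from lactation, Slc34a2, a phosphate carrier, was called higher at 1.96 CPM in vBrL, 139 in pBrL-1 and 35.5 in pBrL-2 (adjusted p = 0.0458). Of 17 genes of the secretory pathway, Canx, a chaperone of the endoplasmic reticulum, was called lower at 3605, 1784 and 1620 CPM (adjusted p = 0.0479) and 0 were called higher.

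**Figure D2:**
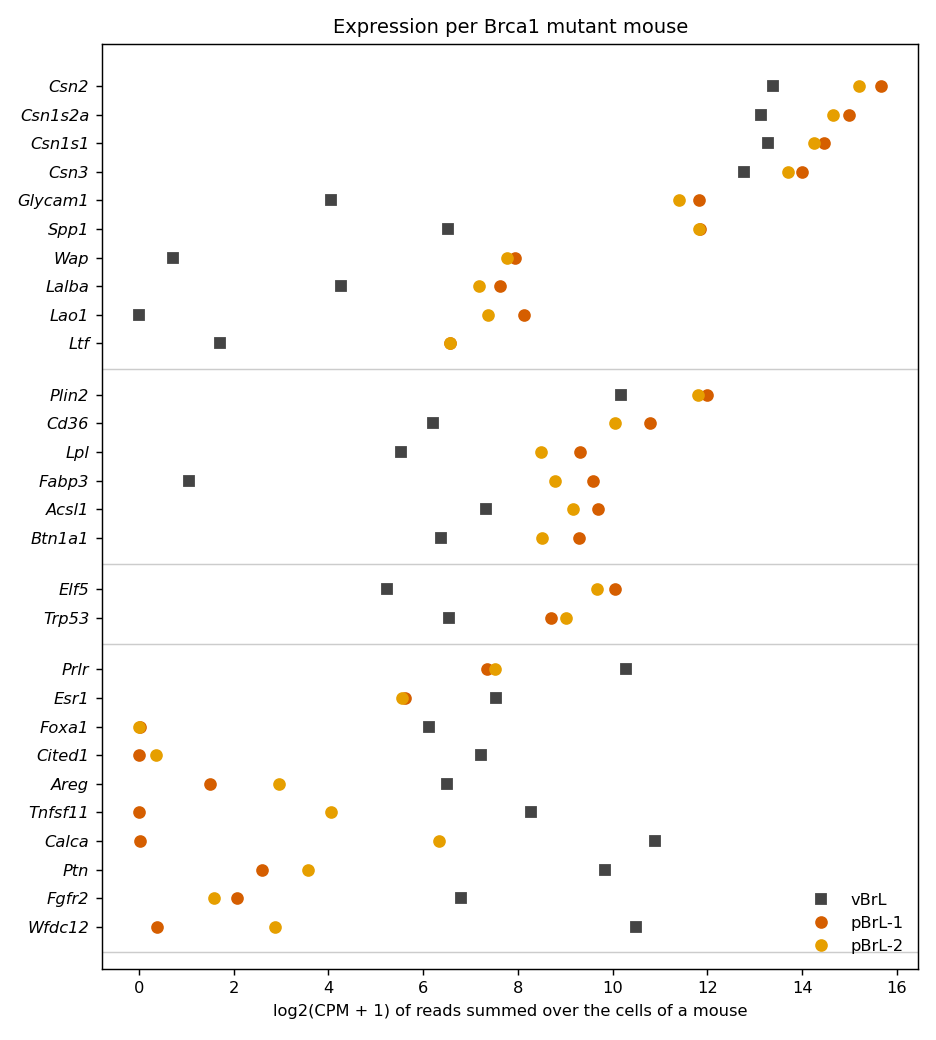
The x axis gives log2(CPM + 1) of the reads summed over the cells of a mouse, with 1 point per mouse and gene, for milk proteins, fat genes, Elf5 and Trp53, and hormone-sensing genes and their like, from top to bottom. Both pregnant mice lie above vBrL in the upper blocks, where Spp1 and Ltf overlap in the pregnant mice, and below it in the lowest block.

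Elf5, the transcription factor of alveolar luminal cells, was the only one of 15 luminal transcription factors that was called higher. It read 36.7 CPM in vBrL, 1063 in pBrL-1 and 808 in pBrL-2 (4.67 ± 0.38, adjusted p = 9.79e-04), and was not called in the fit over all 7 luminal mice (adjusted p = 0.115). Elf5 had a read in 18 of 35 virgin cells (51.4%), in 68 of 71 cells of pBrL-1 (95.8%) and in 37 of 38 cells of pBrL-2 (97.4%), and its median per cell was 9.51, 862 and 755 CPM. Its partner factors in luminal cells were not called, with Gata3 at 313, 370 and 362 CPM and Ehf at 735, 1115 and 998 CPM (adjusted p = 0.756 and 0.392). Foxa1, which opens chromatin for the estrogen receptor, was the 1 factor called lower, at 68.9 CPM in vBrL, 0.0173 in pBrL-1 and 0 in pBrL-2 (adjusted p = 0.00293). Among the 8 markers of luminal progenitors, Elf5 alone was called, and Kit, a receptor of progenitors, read 191, 139 and 220 CPM (adjusted p = 0.921).

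Of 25 ligands, receptors, transducers and inhibitors of hormone and growth factor signaling that were tested, 0 were called higher and 3 lower, Prlr, Areg and Fgfr2. Of the genes that carry the prolactin signal, the receptor was called and the transducers were not. Prlr, the prolactin receptor, read 1245 CPM in vBrL, 162 in pBrL-1 and 182 in pBrL-2, a log2 fold change of -2.87 ± 0.26 (adjusted p = 0.00209, and 0.104 over all 7 luminal mice). Stat5a read 133, 123 and 102 CPM, Stat5b 24.2, 48 and 33 CPM and Jak2 44.6, 27 and 49.7 CPM, all without a call. Cish and Socs2, which STAT5 induces, pointed in opposite directions without a call, with 49.2, 187 and 147 CPM for Cish and 178, 67.3 and 41.1 CPM for Socs2 (adjusted p = 0.0931 and 0.113).

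Part of the hormone-sensing genes was called lower in pregnancy. Of 10 markers of these cells, 0 were called higher, 4 were called lower (0.787% of all genes tested) and 8 were past the size rule downward (4.15% of all genes), with a median log2 ratio of -3.93 in pBrL-1 and -3.34 in pBrL-2. Besides Prlr and Foxa1, Cited1, a coactivator of the estrogen receptor, read 148 CPM in vBrL, 0 in pBrL-1 and 0.286 in pBrL-2 (adjusted p = 0.0182). Areg, amphiregulin, the growth factor through which estrogen acts on ducts, read 89.7, 1.81 and 6.71 CPM (-4.42 ± 0.85, adjusted p = 0.0476, and 0.165 over all 7 luminal mice). Esr1, the estrogen receptor, read 184, 47.8 and 46.2 CPM without a call (adjusted p = 0.0639), and Pgr, the progesterone receptor, read 25.2, 0.173 and 3.45 CPM (adjusted p = 0.322). Tnfsf11, the RANK ligand that progesterone induces, read 309 CPM in vBrL, 0 in pBrL-1 and 15.6 in pBrL-2 (adjusted p = 0.243), and its receptor Tnfrsf11a read 56.3, 97.6 and 82.1 CPM (adjusted p = 0.568).

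The 12 genes that were lowest in pregnancy by the size rule, with a mean of at least 50 CPM and a read in at least 25% of the virgin cells, included further secreted factors and receptors. Wfdc12, a relative of whey acidic protein, read 1432 CPM in vBrL, 0.311 in pBrL-1 and 6.28 in pBrL-2 (adjusted p = 0.0162, and 0.379 over all 7 luminal mice). Ptn, the growth factor pleiotrophin, read 915, 5.09 and 10.9 CPM (-6.86 ± 0.46, adjusted p = 3.18e-04, and 0.0602 over all 7 luminal mice), and Fgfr2, a fibroblast growth factor receptor, 111, 3.22 and 2.00 CPM (-5.42 ± 0.69, adjusted p = 0.00904). Calca, the calcitonin gene, which progesterone induces in this tissue, read 1913 CPM in vBrL, 0.0173 in pBrL-1 and 80.2 in pBrL-2. The pregnant mice were both lower but differed from each other, and Calca was not called (adjusted p = 0.252). Slc7a2, a carrier of basic amino acids, Fxyd2, a subunit of the sodium pump, and Zfp990 were called lower, at 127, 139 and 167 CPM in vBrL and under 3 CPM in each pregnant mouse. Bmp3, Agtr1a, Cdo1, Hp and Dcn were past 4-fold in both mice and not called, from 417, 159, 126, 176 and 711 CPM in vBrL.

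In sums over cells, fewer cells of a kind and less RNA per cell cannot be told apart. Counts of cells by the same markers do not part them either, since less RNA per cell also leaves fewer markers with a read. A cell was placed in the hormone-sensing range where at least 3 of the 10 markers had a read after thinning to 100000 reads. This held for 14 of 35 virgin cells (40.0%, exact 95% interval 23.9 to 57.9), 3 of 71 cells of pBrL-1 (4.23%, 0.880 to 11.9) and 2 of 38 cells of pBrL-2 (5.26%, 0.644 to 17.7). The intervals cover counting error only and come from 1 mouse each. The limit is a cut through a range and not a cell type, since 6, 22 and 15 cells of vBrL, pBrL-1 and pBrL-2 had 2 of the markers and 3, 3 and 1 cells had exactly 3. The highest number in a cell was 10 markers in vBrL, 3 in pBrL-1 and 6 in pBrL-2.

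Several genes that were lower in pregnancy had most of their virgin reads in those cells. Of the reads of Ptn in vBrL, 99.8% lay in the 14 cells of the range, as did 99.9% of those of Calca, 99.6% of those of Abcg1 and 94.5% of those of Prlr, against 10.5% of those of Csn2. Not all genes called lower had most of their reads there, with 35.1% of the Canx reads and 1.00% of the Cd74 reads in these cells. The 14 cells were 40.0% of the virgin cells, so the Canx reads lay near that share. In pBrL-2, 1 cell with 6 of the markers and caseins at 0.0838% of its reads held 100% of the Calca reads, 98.1% of the Ptn reads and 98.6% of the Tnfsf11 reads. The level of these genes in pBrL-2 thus rested on 1 cell, which read 3083 CPM of Calca. Low reads of Calca and Wfdc12 were present in 35 of 35 cells of vBrL before thinning and in 17 and 20 of them after it, with a median of 3.58 and 6.70 CPM per cell, and their source was not tested.

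Outside the range were 21 cells in vBrL, 68 in pBrL-1 and 36 in pBrL-2. The range was set by reads of the markers, Prlr among them, so that their lower level in the remaining virgin cells follows from the choice of cells. Prlr read 108 CPM in vBrL, 157 in pBrL-1 and 141 in pBrL-2 in these cells, Ptn 2.24, 5.34 and 0.221 and Abcg1 1.67, 16.7 and 10.6, and the log2 fold change turned to 0.32 for Prlr, 0.18 for Ptn and 2.89 for Abcg1, all without a call. Of the 12 genes lowest by size, Fgfr2, with 43.9, 3.38 and 2.13 CPM, and Zfp990, with 56.8, 0.417 and 1.02 CPM, were still called lower. Hp was still lower without a call, at 73.9, 2.14 and 0 CPM. Of the genes called higher, Csn2 read 14919, 50781 and 39236 CPM, Elf5 46.7, 1044 and 832 CPM, Fabp3 0.858, 758 and 463 CPM and Trp53 64.3, 416 and 497 CPM, and these 4 stayed called. Csn1s1 and Csn3 lost their calls, with log2 fold changes of 0.54 and 0.62 (adjusted p = 0.102 and 0.0795), and Csn1s2a was at 1.03 and still called. The calls over all genes were 419 higher and 418 lower among these cells, and 136 of the 177 calls over all cells were among them. This choice of cells was made after the data had been seen.

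**Figure D3:**
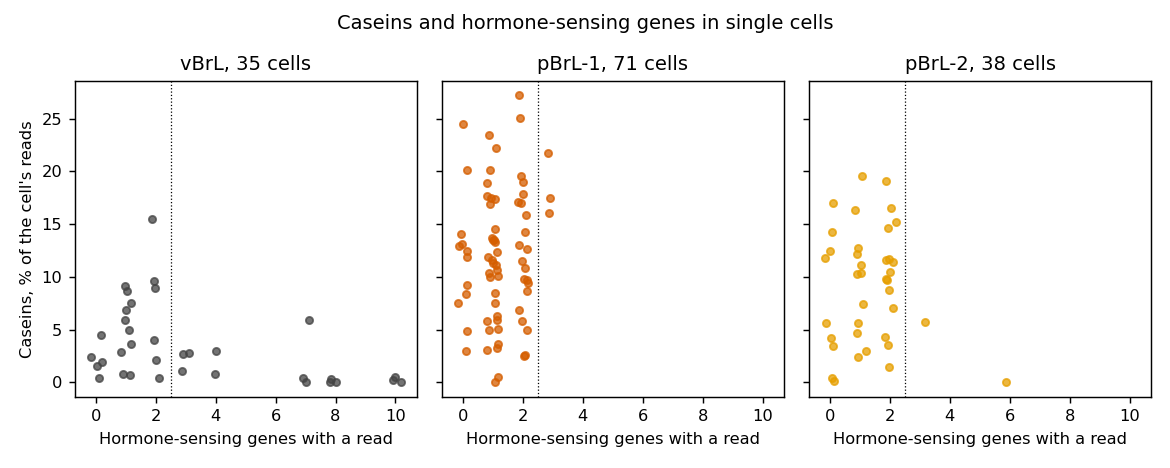
Each point is a cell, with the number of the 10 hormone-sensing markers that had a read after thinning on the x axis (points shifted sideways at random) and the caseins as a percent of its reads on the y axis, for each mouse. The dotted line marks the limit of 3 markers, with 14 of 35 virgin cells, 3 of 71 cells of pBrL-1 and 2 of 38 cells of pBrL-2 to its right.

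The caseins took a larger share of the reads in most cells of the pregnant mice than in those of the virgin mouse. They made up 3.64% of all reads in vBrL, 12.3% in pBrL-1 and 9.61% in pBrL-2, and the median cell had 2.44%, 11.9% and 10.1%. Between cells the share ran from 9.01e-04% to 15.5% in vBrL, from 0.0860% to 27.2% in pBrL-1 and from 0.0838% to 19.6% in pBrL-2, so the ranges overlapped. More than 10% of reads were casein in 1 of 35 virgin cells (2.86%, 0.0723 to 14.9), 44 of 71 cells of pBrL-1 (62%, 49.7 to 73.2) and 19 of 38 cells of pBrL-2 (an interval of 33.4 to 66.6%). Less than 1% was casein in 13, 2 and 3 cells. In vBrL the median was 0.492% among the cells of the hormone-sensing range and 4.04% among the rest. The 3 cells of pBrL-1 in that range were at 16.1% to 21.7%, within the upper part of their mouse, and the 2 of pBrL-2 were at 0.0838% and 5.73%.

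Milk and fat genes that were high in pregnancy had reads together in part of the cells of the pregnant mice. Each was found in many cells there, so some overlap follows, and whether there was more was not tested. Cd36, Fabp3, Glycam1 and Wap were taken after their values were seen, and since Wap had a read in 1 virgin cell and Glycam1 in 2, few virgin cells could hold them all. All 4 had a read after thinning in 0 of 35 virgin cells (exact 95% interval 0 to 10.0%), 38 of 71 cells of pBrL-1 (53.5%, 41.3 to 65.5) and 15 of 38 cells of pBrL-2 (39.5%, 24 to 56.6). None of the 4 had a read in 27, 4 and 3 cells. Glycam1 had a read in 2 of 35 cells of vBrL (5.71%), 63 of 71 of pBrL-1 (88.7%) and 33 of 38 of pBrL-2 (86.8%), and Wap in 1, 41 and 16 cells. Spp1 was uneven within the pregnant mice, with a read in 56 of 71 and 26 of 38 cells, a median of 571 and 162 CPM and a highest cell at 27222 and 17830 CPM. Prlr and Esr1 did not part by share of cells. Prlr had a read in 77.1% of virgin cells and in 71.8% and 71.1% of the pregnant ones, and Esr1 in 31.4%, 19.7% and 31.6%, with intervals that overlapped.

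**Figure D4:**
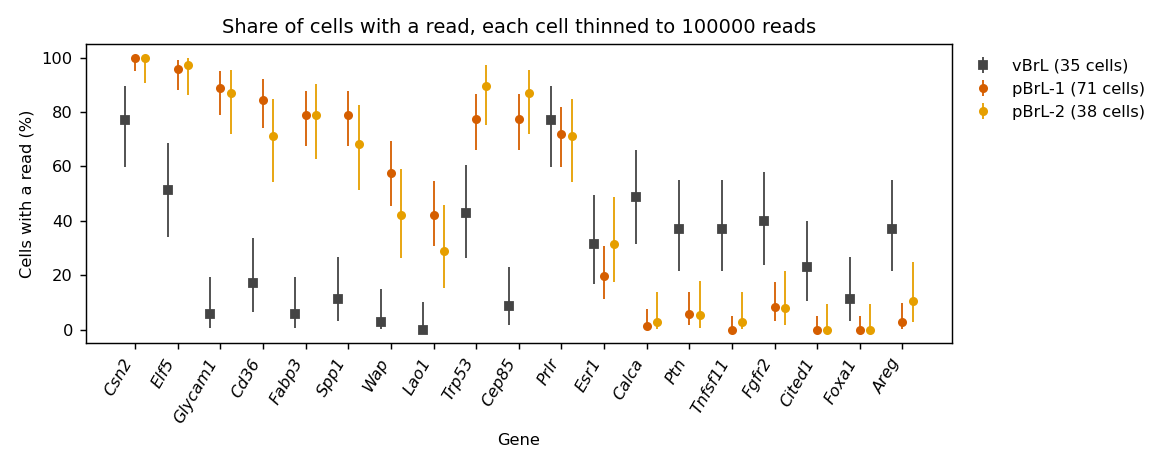
The y axis gives the percent of cells of a mouse with a read of the gene after each cell was thinned to 100000 reads, and the bars are exact 95% binomial intervals that cover counting error within a mouse only. From Glycam1 to Cep85 the shares of both pregnant mice lie above that of vBrL with intervals apart, Prlr and Esr1 overlap, and from Calca to Areg the pregnant mice lie lower. Genes taken by size were also taken by their share of cells in the stage where they are high, so their shares are a description.

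The 12 genes that were highest in pregnancy by the size rule, with the same limits on level and share of cells, also held genes of other roles. Cep85, a centrosome protein, read 2.24 CPM in vBrL, 136 in pBrL-1 and 167 in pBrL-2 (6.07 ± 0.59, adjusted p = 0.00256), with a read in 3 of 35, 55 of 71 and 33 of 38 cells. Hspa1a, a heat shock protein, read 0.101, 54.7 and 71.3 CPM (9.25 ± 1.01, adjusted p = 0.00388), with a read in 0 of 35 virgin cells and in 22 of 71 and 26 of 38 pregnant cells. In the fit over all 7 luminal mice Cep85 was called and Hspa1a was not (adjusted p = 0.0133 and 0.0650). Duoxa1, which matures the dual oxidase, read 0.534, 119 and 76.4 CPM, Galm, an epimerase of galactose metabolism, 1.99, 91.3 and 79 CPM, the zinc finger gene Zfp954 1.37, 54.3 and 58.0 CPM and Col9a1, a collagen chain, 0.375, 75.9 and 28.6 CPM. All 4 were called higher (adjusted p = 0.00351, 0.0105, 0.0266 and 0.0266).

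Several differences sat in single cells. The 2 genes of MHC class II called lower in pregnancy were Cd74 at 360 CPM in vBrL, 18.3 in pBrL-1 and 13.5 in pBrL-2 (adjusted p = 0.00209) and H2-Aa at 368, 3.36 and 0.247 CPM (adjusted p = 0.0196). In vBrL 1 cell held 97.7% of the Cd74 reads and 99.3% of the H2-Aa reads, and 100% of those of Csf1r, a macrophage receptor, and of Lyz2, a lysozyme of macrophages. That cell also read 9.58% casein, 969 CPM of Krt8 and 842 CPM of Epcam. Without cells that held at least 2 immune or at least 2 basal markers at 10 CPM, which took out 2 cells of vBrL and 1 of each pregnant mouse, Cd74 read 8.98, 18.6 and 13.8 CPM and its log2 fold change was 0.85, and H2-Aa read 2.63, 3.41 and 0.252 CPM. Siglech and Klra2, called lower with 0 reads in both pregnant mice, lay in the same virgin cell with 100.0% and 100% of their reads. The basal markers also lay in few cells, and 1 cell of pBrL-1 with 0.0860% casein held 99.1% of the Acta2 reads and 97.2% of the Cnn1 reads. Cnn1, called higher at 0, 55.2 and 18.5 CPM (adjusted p = 0.0155), read 0, 1.54 and 3.11 CPM without those cells and was then not called.

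The called genes with the largest fitted folds were at 0 reads in 1 stage, and all but Lao1 were found in few cells. Higher in pregnancy besides Lao1 and Cnn1 were Gbp2b, a guanylate-binding protein, Timp3, an inhibitor of metalloproteases, Ypel2, Spryd4, Tmc7, Zfp235, Prox1, a homeobox factor, and Oit1, all with 0 reads in vBrL. With 3 reads as the limit in vBrL, they were at least 258-fold (Ypel2) to at least 678-fold (Gbp2b) higher in each pregnant mouse, and each had a read in 3 to 12 of 71 cells of pBrL-1 and 2 to 6 of 38 cells of pBrL-2 after thinning. For Gbp2b, 1 cell held 86.8% of the reads of pBrL-2, and for Timp3 85.3%. Without the cells with immune or basal markers Timp3 and Spryd4 were no longer called (adjusted p = 0.0736 and 0.0682), and they read 5.30 and 6.79 CPM in pBrL-2 then. Lower in pregnancy, with 0 reads in both pregnant mice, were Ctsj, Fgg, Spock1, Apof, Slc35f3, Ank, Pate2 and Lrp11 besides Siglech and Klra2. These 8 had a read in 1 to 5 of 35 virgin cells, and 1 cell held 99.6% of the Ctsj reads, 96.5% of those of Spock1 and 84.4% of those of Fgg, the gamma chain of fibrinogen, which was at least 1762-fold lower in each pregnant mouse with 3 reads as the limit in that mouse. From 99.3% to 100% of the reads of Spock1, Apof, Slc35f3, Ank, Pate2 and Lrp11 lay in cells of the hormone-sensing range.

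Few genes of cell division, DNA repair and the response to interferon were called. Of all genes tested 1.25% were called, so lists this short cannot show fewer calls than usual. Of 14 mitosis genes, 11 were higher in both pregnant mice than in the virgin mouse, against 38.4% of all genes tested, with a median log2 ratio of 0.44 in pBrL-1 and 1.40 in pBrL-2, and 2 were past the size rule (3.69% of all genes). Aurka, a mitotic kinase, was called higher at 1.73 CPM in vBrL, 57.5 in pBrL-1 and 59.6 in pBrL-2 (adjusted p = 0.0266), and 0 were called lower. Mki67, the proliferation marker, read 126, 162 and 164 CPM (adjusted p = 0.690). At least 3 mitosis genes had a read in 8 of 35 virgin cells (22.9%, 10.4 to 40.1), 21 of 71 cells of pBrL-1 (29.6%, 19.3 to 41.6) and 21 of 38 cells of pBrL-2 (55.3%, 38.3 to 71.4), so the pregnant mice differed from each other. Of 14 DNA replication genes, 7 tested cell cycle regulators, 15 DNA break repair genes and 11 immediate early genes, 0 were called. Brca2, which acts in the repair of DNA breaks, read 25.4, 13 and 12.8 CPM (adjusted p = 0.654). Of 14 interferon-stimulated genes 0 were called, and Cxcl10, a chemokine, differed most between the pregnant mice, at 17.0 CPM in vBrL, 0.0173 in pBrL-1 and 278 in pBrL-2.

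The same stages were sampled in mice with Brca1 fl/fl and Trp53 fl/+ (Br53, vBr53L with 39 cells and pBr53L with 53) and with Trp53 fl/+ alone (53, v53L with 40 cells and p53L with 36), all with MMTV-Cre. There each pair of stages shared a chip, so the chip does not part the stages, and each stage was 1 mouse, so the values have no replicate. These mice are not the ones of the Brca1 mutant comparison. Of the 521 genes past the size rule upward, 121 (23.2%, and 9.79% of the 1236 of that pair) were at least 4-fold higher in the Br53 pair, and 130 (25%, and 9.23% of 1409) in the 53 pair, where 8.76% and 9.99% of all tested genes were. Of the 586 downward, 106 (18.1%, and 13.6% of 780) and 164 (28%, and 11% of 1488) were at least 4-fold lower, against 5.53% and 10.5% of all tested genes. Genes at least 4-fold in the opposite direction were also more frequent than among all tested genes in 3 of 4 cases. They numbered 44 of the 521 in the Br53 pair (8.45%, against 5.53% of all tested) and 73 in the 53 pair (14%, against 10.5%), and 73 (12.5%, against 8.76%) and 56 (9.56%, against 9.99%) of the 586. Both other pairs shared the direction at that size for 42 genes upward (8.06%, against 2.08% of all tested) and 56 downward (9.56%, against 1.67%).

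The caseins and some fat genes pointed the same way on the shared chips. The median log2 ratio of the caseins was 1.82 in the Br53 pair and 2.45 in the 53 pair, and that of the fatty acid uptake genes 2.18 and 2.91. Csn2 read 11616 and 46823 CPM in vBr53L and pBr53L and 9372 and 51276 in v53L and p53L. Fabp3 read 57.2 and 685 CPM and 5.75 and 1007 CPM, and Elf5 170 and 456 CPM and 5.90 and 135 CPM, virgin before pregnant. Prlr was lower in both, from 525 to 167 CPM and from 3713 to 221 CPM, and so were Fgfr2, from 44.9 to 2.60 and from 619 to 19.3, and Areg, from 106 to 0.914 and from 293 to 22.3. At least 3 hormone-sensing markers had a read in 43.6% and 11.3% of the cells of vBr53L and pBr53L and in 62.5% and 8.33% of those of v53L and p53L.

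The whey and other secreted milk proteins differed between the pairs, with a median log2 ratio of 0.95 in the Br53 pair and -0.24 in the 53 pair. Spp1 read 2375 and 3064 CPM in the Br53 pair and 21352 and 5468 in the 53 pair, so that vBrL at 91.5 CPM was the lowest of the 3 virgin mice. Ltf read 395 and 329 CPM and 110 and 97.3 CPM, Lalba 14.1 and 220 and 698 and 196, and Cep85 266 and 79 and 133 and 52.6. Trp53 read 164 and 243 CPM in the Br53 pair and 93.4 and 177 CPM in the 53 pair, so both were higher in pregnancy by less than in the Brca1 mutant mice. Calca read 1074 and 308 CPM in the Br53 pair but 5.08 and 320 in the 53 pair, and Wfdc12 was higher in pregnancy in the 53 pair by log2 3.32. Cd74 read 8.51 and 620 CPM in the Br53 pair and 9.25 and 12.9 in the 53 pair.

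The difference between the genotypes was tested with an interaction term over the 7 luminal mice. Of 15550 genes, 12 were called (0.0772%), 3 with a more positive difference in Brca1 mutant mice (0.0193%) and 9 with a more negative one (0.0579%), and 1003 had an unadjusted p under 0.05. Spp1, Ltf and Cep85 were the 3, at a log2 interaction of 6.02 ± 0.83, 5.49 ± 0.70 and 7.53 ± 0.83 (adjusted p = 0.0349, 0.0250 and 0.00984). The interaction was not called for the 4 caseins that rose, Wap, Fabp3, Elf5, Prlr or Trp53, which does not show that these genes moved alike in the 3 genotypes. In simulated counts on the same design the term found 2% of genes changed 4-fold and 41% of those changed 16-fold, so most differences of these sizes between genotypes would not have been called.

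**Figure D5:**
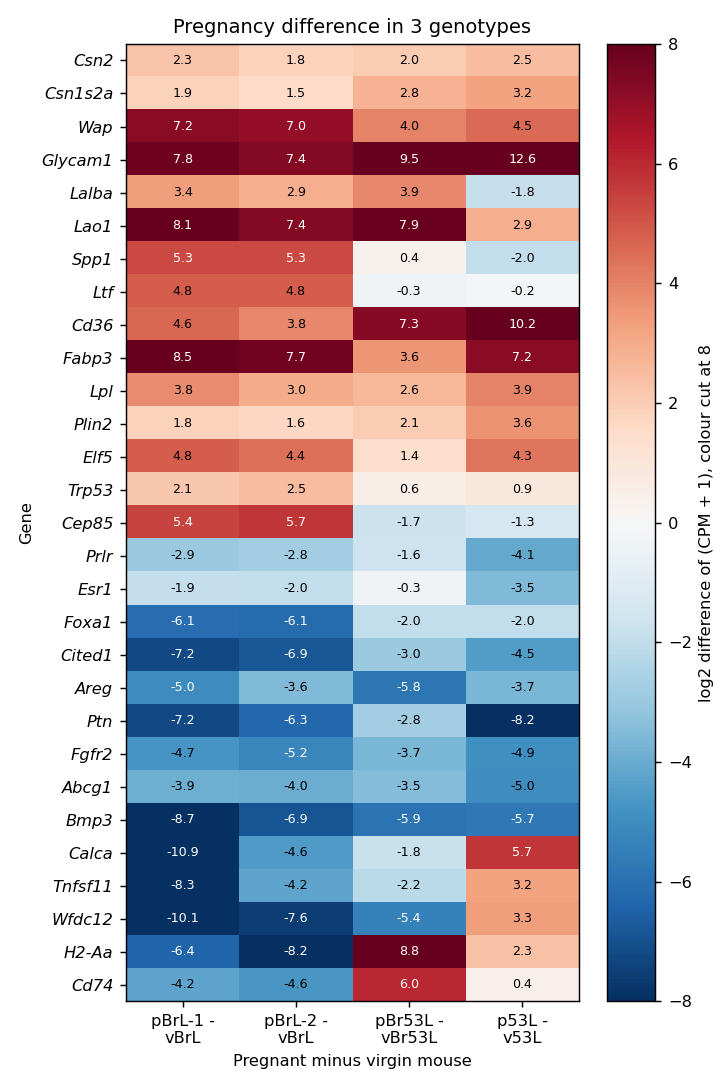
Each cell gives the log2(CPM + 1) difference of a pregnant from a virgin mouse for a gene (rows), for pBrL-1 and pBrL-2 against vBrL and for the Br53 and 53 pairs (columns), with the colour cut at 8. Csn2, Glycam1, Cd36, Fabp3 and Elf5 are higher and Prlr, Areg, Ptn, Fgfr2 and Abcg1 lower in all 4 columns, whereas Spp1, Ltf, Cep85, Lalba, Calca, Tnfsf11, Wfdc12, H2-Aa and Cd74 differ in sign between them.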

How the data were processed

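Fluidigm C1 full-length libraries of 477 mouse cells were used, 312 of them luminal. The authors filtered reads with sickle, trimmed them with Trim Galore 0.4.1, aligned them to mm10 with STAR 2.5.3a and counted reads per gene with Subread 1.5.3. The deposited values are raw counts for each gene in each cell. The libraries carried no molecular identifiers, so copies made by PCR are counted and intervals cover counting error only. The annotation, the strand setting and the filters applied to cells or genes were not given in the sources used here, so reads of near-identical or overlapping genes cannot be told apart. Capture sites had been inspected for doublets under a microscope, and no doublet caller was run.

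Each mouse entered as 1 sample, the sum of the counts of its cells (total 40338926 to 115827852 reads over the 7 luminal mice), and the 3 Brca1 mutant mice were tested with edgeR 4.0.16 in R 4.3.3 (filterByExpr, TMM factors, quasi-likelihood test, Benjamini-Hochberg adjusted p under 0.05). The 7 luminal mice were fitted with genotype and stage (2 residual degrees of freedom). Stage had a term for the Brca1 mutant mice and a term shared by the other genotypes. The interaction is the difference between these terms. TMM factors lay between 0.982 and 1.023. CPM are of the total of a mouse. Fitted fold changes are edgeR's, and for genes at 0 in a stage a bound from 3 reads in each mouse of that stage is given. For shares of cells, each cell was thinned to 100000 reads, and 0 cells were left out as too shallow, with exact Clopper-Pearson 95% intervals. On simulated counts of 13497 genes, the first test recovered 38 of 100 genes changed 4-fold (38%) and 96 of 100 changed 16-fold (96%). It made 14 false calls beside these. Each simulated gene took the spread typical of its level, without reads concentrated in 1 cell.

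Genes were named as the 10 called genes with the largest fold in each direction, the 12 largest by the size rule in each direction, members of the gene lists, Brca1 and Trp53. Gene models without a name were left out of the first 2 of these. The members and lists were chosen with earlier results of these data known. GENCODE vM21 held 20919 of 21004 symbols (99.6%), and promoter sequences are from RefSeq (GRCm38.p6). Alternatives covered the scaling, DESeq2 1.42.0, limma 3.58.1, filters, the cells used, the genes scaled, pseudocounts, thinning and left-out mice. Cells with at least 3 hormone-sensing markers, and cells with immune or basal markers, were left out as alternatives added after the data had been seen.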

Additional observations from a re-analysis of the deposited data

Results flagged for a closer look

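For 12 genes the pregnancy difference in Brca1 mutant mice differed from that shared by the Br53 and 53 mice by the edgeR interaction test over 7 mice. Each genotype and stage except pBrL held 1 mouse, and the 2 other pairs each shared a chip whereas the Brca1 mutant mice did not. No group held the 4 or more mice that a test for an outlying mouse needs.

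Cep85, Ltf and Spp1 had the more positive difference. For Cep85 the interaction was log2 7.53 ± 0.83 (adjusted p = 0.00984, and 7.49e-24 to 0.667 over 16 other settings), with 266 CPM in vBr53L and 133 in v53L against 2.24 in vBrL. For Ltf it was 5.49 ± 0.70 (adjusted p = 0.0250), with 395 CPM in vBr53L and 110 in v53L against 2.28 in vBrL. For Spp1 it was 6.02 ± 0.83 (adjusted p = 0.0349), with 91.5, 2375 and 21352 CPM. In all 3 genes vBrL was the lowest of the 7 mice.

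Among the 9 with the more negative difference, Nup62cl (-13.66 ± 1.55, adjusted p = 0.00984), Cdc25c (-12.08 ± 1.34, adjusted p = 0.00984) and Mettl4 (-14.38 ± 2.05, adjusted p = 0.0469) read 219, 47.5 and 30.6 CPM in vBrL and at most 0.0588 CPM in the other virgin mice. Cdc25c and Mettl4 read 50.4 and 72.2 CPM and 25 and 29.9 CPM in pBrL-1 and pBrL-2. Olah, the thioesterase that releases medium-chain fatty acids (-13.74 ± 1.91, adjusted p = 0.0469), read 19.2 CPM in vBrL, 89 in pBrL-1 and 19.5 in pBrL-2, and 0 in both other virgin mice against 59.7 and 65.1 CPM in pBr53L and p53L. Gbp9 (-11.27 ± 1.47, adjusted p = 0.0250) read 26.8, 4.56 and 16.8 CPM in Brca1 mutant mice and rose from 0.0735 to 145 and from 0.124 to 53.1 CPM in the pairs. Plac8 (-9.31 ± 1.39, adjusted p = 0.0469) read 123 CPM in vBrL and 0.0259 and 0.182 CPM in the pregnant mice.

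H2-Aa (-22.35 ± 2.09, adjusted p = 0.00590), Lyz2 (-24.32 ± 3.28, adjusted p = 0.0409) and Dnase1l3 (-25.15 ± 3.40, adjusted p = 0.0409) had from 99.0% to 100% of their vBrL reads in 1 cell. Without the cells with immune or basal markers the adjusted p was 0.0678, 1.00 and 0.670, against a range over 16 settings of 1.65e-70 to 0.667 for H2-Aa, 3.17e-19 to 1.00 for Lyz2 and 2.15e-12 to 1.000 for Dnase1l3. Of the 16 settings, 14 called Cep85, Cdc25c and Nup62cl and 7 to 13 called each of the others. Ltf and Spp1 had no value in the setting that left out the milk protein genes.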

How the results depend on the processing

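No paired analysis was possible because the Brca1 mutant stages shared no chip and the labels give the mice no replicate numbers. The Br53 and 53 pairs, which each shared a chip, are given as values. The 177 calls became 375 with RLE size factors, 472 with library size alone, 1802 with DESeq2, 978 with no filter, 36 with 30 cells drawn per mouse (34 of them shared), 0 with limma on mean CPM, 837 without cells of the hormone-sensing range (136 shared) and 18 with 7 luminal mice in the fit (17 shared). That fit gave 22 to 45 when 1 of the pregnant mice was left out. The 12 interaction calls became 6 with RLE size factors, 6 with library size alone, 683 with DESeq2, 199 with no filter, 0 with limma (1077 at an unadjusted p under 0.05), 7 without cells with immune or basal markers, 2 without the hormone-sensing range and 11 to 734 without 1 mouse (734 without vBr53L, 527 without pBr53L, 303 without v53L, 207 without p53L, 32 without pBrL-2). The 521 genes higher by size became 1186 at a pseudocount of 0.1 CPM, 104 at 5 CPM, 1700 at a fold of 2, 1111 without the hormone-sensing range and 1100 to 1250 without 1 pregnant mouse. The 586 lower became 1006, 224, 1616 and 967 to 985 under the same pseudocounts, fold and left-out mice. Called under each setting but limma were Cep85, Fabp3 and Fgg, among genes with a value in each setting. Wap, Spp1 and Foxa1 had values in 12 settings and were called in 11 of them, all but limma. Wap and Spp1 had no value in the setting that left out the milk protein genes, and Foxa1 had none without the hormone-sensing range. Directions turned without the hormone-sensing range for Abcg1 (log2 2.89), Dcn (2.40), Prlr (0.32), Ptn (0.18), Slc5a5 (1.23) and Tbx3 (1.13), without cells with immune or basal markers for Cd74 (0.85), Csf1r (6.68), H2-Ab1 (1.59) and H2-Eb1 (1.81), and for Brca1 without pBrL-2 (-1.03, against 2.87 without pBrL-1). The turned fold changes were not called, and several rested on few reads. Csf1r then read 0 CPM in vBrL, 0.254 in pBrL-1 and 0.0398 in pBrL-2. For H2-Ab1, Dcn, Ptn, Slc5a5 and Tbx3, pBrL-2 still lay below vBrL. Among called genes, an opposite sign of at least 1 on the log2 scale was found in the Br53 pair on its shared chip for Apof (2.80), Cd74 (6.03), Cep85 (-1.74), H2-Aa (8.82) and Siglech (1.06), and in the 53 pair for Apof (3.91), Cep85 (-1.32), H2-Aa (2.34), Lalba (-1.83), Spp1 (-1.97), Tmc7 (-5.59), Wfdc12 (3.32) and Zfp954 (-1.43). The cause of these changes was not tested, apart from the cells and mice that a setting leaves out. Of 261 shares of cells, 59 moved with no thinning and 13 at 50000 reads. Depth limits genes of few reads: 3 reads are 0.0433 CPM in vBrL, 0.0259 in pBrL-1 and 0.0389 in pBrL-2.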
